A study of Mus musculus with 6 samples.

Results

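Cell cycle and DNA replication genes were examined as 46 members chosen by gene symbol, each standing on 1 of the 46072 gene identifiers of the count and FPKM tables. They comprised 18 genes of S phase and DNA replication, 18 genes of G2 and mitosis, 6 G1 cyclins and cyclin-dependent kinases (CDKs), and 4 CDK inhibitors. All 46 passed the filter on low counts, which left 16138 genes for testing. The messenger RNA came from splenic monocytes of female C57BL/6 mice, with 1 library from each of 3 water-gavaged mice (Con) and 3 vancomycin-gavaged mice (Van). Van mice received 2 mg of vancomycin per day, an antibiotic that acts in the gut, as gavages of 1 mg on 6 days, and Con mice received water instead. Both groups then rested without treatment before the spleens were taken, for between 6 and 8 days by the labels and the methods, and for 8 days by the account of the RNA libraries. Monocytes were enriched by magnetic removal of other cells, and the cells were neither stimulated nor staged by cell cycle phase. The purity stated for these preparations leaves a minor part of other cells. For cultured monocytes pairs of spleens were combined, while the account of the RNA names 3 mice in each group and does not mention combined spleens. The 6 libraries held between 43383919 and 61834407 estimated counts in total.

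A cell enters the cycle when D-type cyclins with CDK4 or CDK6 inactivate the retinoblastoma protein and release E2F factors, which switch on the genes that license and copy DNA. Later, cyclin A, cyclin B and CDK1 drive the genes and proteins that condense, align and separate the chromosomes. CDK inhibitors hold these kinases back. Monocytes are mostly descendants of dividing marrow precursors that no longer divide, while red-cell precursors, which the mouse spleen also makes, divide actively.

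Replication and mitotic genes are known to differ in their promoters, so the promoter windows of the members were searched for the sequence elements that E2F and the mitotic gene complexes bind. RefSeq windows of 300 bases, 250 before and 50 after a start site (GRCm38.p6), were found for 38 of the 46 members, 43 windows in all. Ccne2, Mcm4, Ccna2, Aurkb, Kif20a, Tpx2, Ccnd1 and Ccnd2 had no window. The E2F site was searched as TTTCCCGC, TTTGGCGC, TTTCGCGC or TTTGCCGC, the cell cycle homology region (CHR) of mitotic genes as TTTGAA or TTCGAA, and the CCAAT box as CCAAT, each on both strands. Of 96 matches in the members' windows, 3 pairs overlapped, among them an E2F pair on opposite strands in each of Mcm5 and Mcm6. The stretches below lie before the start site and are written 5′ to 3′ on the strand of the gene, with every match in capitals and overlapping matches as 1 run. Top2a, Mki67, Cdk1 and Cdc20 are shown as mitotic genes with a CHR, and Mcm5 and Mcm6 as replication genes with an E2F site. They lie at chr11:99024199-99024424 (minus strand), chr7:135716464-135716575 (minus), chr10:69352948-69353128 (minus), chr4:118437353-118437404 (minus), chr8:75109348-75109499 (plus) and chr1:128359707-128359823 (minus).
Top2a: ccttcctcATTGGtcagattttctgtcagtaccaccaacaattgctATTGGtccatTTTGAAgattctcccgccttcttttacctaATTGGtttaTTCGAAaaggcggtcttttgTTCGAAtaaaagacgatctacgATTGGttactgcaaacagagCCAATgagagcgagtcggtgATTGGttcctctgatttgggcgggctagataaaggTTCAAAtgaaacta
Mki67: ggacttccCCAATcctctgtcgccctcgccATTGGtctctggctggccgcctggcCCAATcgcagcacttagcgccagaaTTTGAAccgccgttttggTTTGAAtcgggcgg
Cdk1: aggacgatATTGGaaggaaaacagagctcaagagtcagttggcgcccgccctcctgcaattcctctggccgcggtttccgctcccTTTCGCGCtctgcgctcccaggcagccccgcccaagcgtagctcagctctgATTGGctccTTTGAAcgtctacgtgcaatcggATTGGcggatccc
Cdc20: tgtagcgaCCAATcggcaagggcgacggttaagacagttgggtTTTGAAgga
Mcm5: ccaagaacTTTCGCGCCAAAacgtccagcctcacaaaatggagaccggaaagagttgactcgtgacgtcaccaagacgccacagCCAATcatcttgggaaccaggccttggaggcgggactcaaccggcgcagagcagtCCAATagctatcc
Mcm6: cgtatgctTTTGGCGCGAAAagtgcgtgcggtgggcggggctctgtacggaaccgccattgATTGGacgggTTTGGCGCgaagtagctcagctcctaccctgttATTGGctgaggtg

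A CHR was found in 11 of 14 windows of mitotic members (78.6%) and in 4 of 18 windows of replication members (22.2%). It was found in 14.3% of the windows of genes tested and in 19.2% of all windows. The mitotic windows without one were those of Cenpe, Ccnb1 and Birc5. An E2F site was found in 7 of 18 replication windows (38.9%), those of Mcm3, Mcm5, Mcm6, Mcm7, Cdc6, Cdt1 and E2f2, and in 1 of 14 mitotic windows (7.14%), that of Cdk1. It stood in 3.78% of the windows of genes tested and 2.26% of all windows. The CCAAT box was in 13 mitotic windows (92.9%) and 12 replication windows (66.7%), against 37.6% of the windows of genes tested. In the further lists of the pathway, 42 of 60 mitotic windows held a CHR (70.0%) and 15 of 56 replication windows an E2F site (26.8%). A match describes letters in a window and is neither a bound site nor a cause of any level given here.

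**Figure D1:**
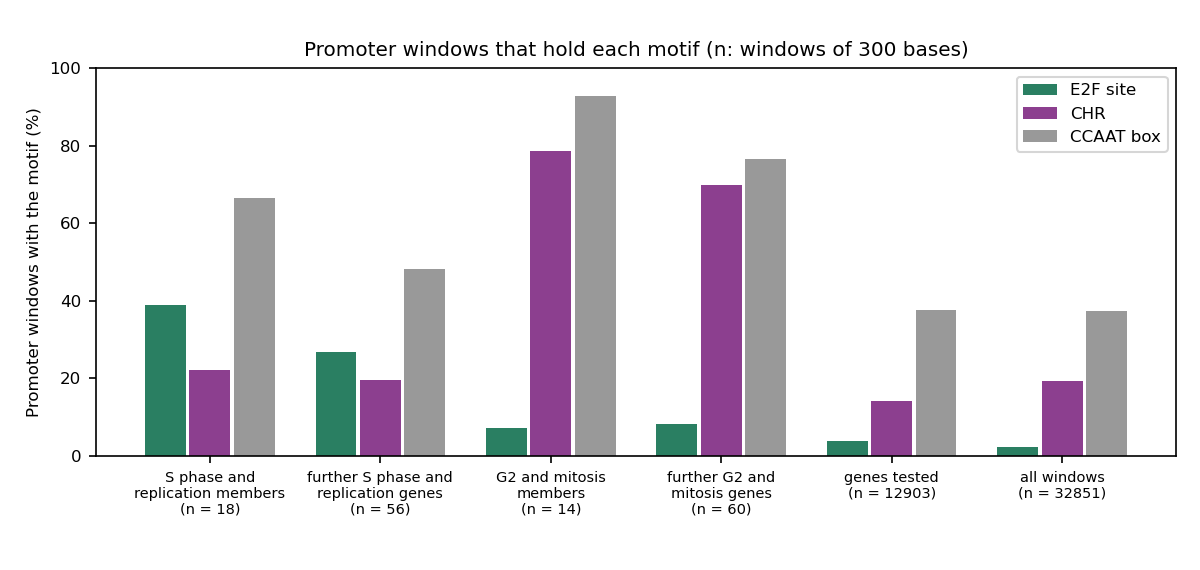
Share of 300-base promoter windows (y axis, percent) that hold an E2F site, a CHR or a CCAAT box in each gene group (x axis, with the number of windows); bars are counts of letter matches and carry no error. The CHR bar is tallest in the mitotic members (78.6%) and the E2F bar in the replication members (38.9%).

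Levels were compared between genes in FPKM, which scales to transcript length. Most members were low. The highest mean FPKM over the 6 mice was 125 for Ccnd3, the gene of cyclin D3, followed by 100.5 for the inhibitor Cdkn1a, 67.7 for Pcna and 63.9 for the inhibitor Cdkn1b. Replication members ran from 0.377 for Cdc6 to 67.7 for Pcna, with a median of 5.55, and 15 of 18 lay under 10. Mitotic members ran from 0.211 for Cenpf to 4.88 for Top2a, with a median of 1.31, so that all 18 lay under 10 and 6 under 1. No mitotic gene reached the level of the 3 highest replication genes, Pcna, E2f2 and Tk1, in any mouse.

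**Figure D2:**
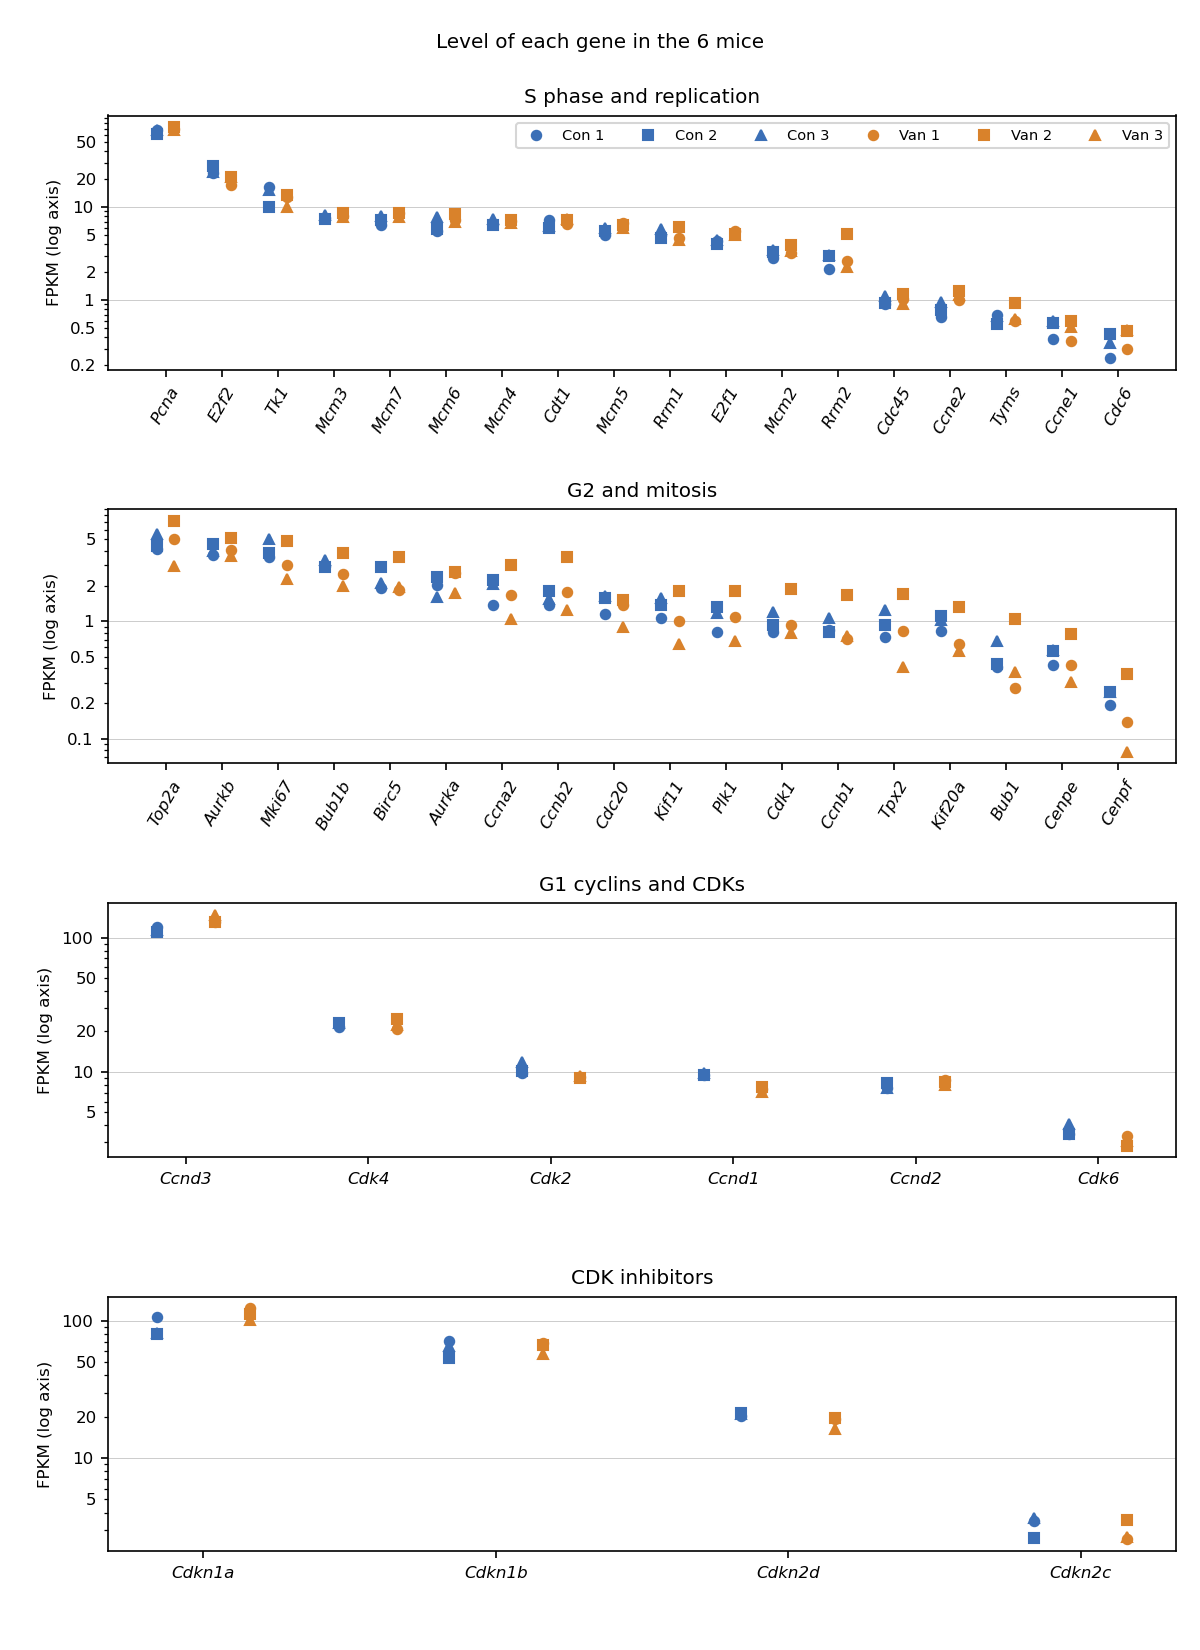
FPKM of each member (y axis, log scale) in the 3 Con mice (blue) and 3 Van mice (orange), in 4 panels by role, with 1 point per mouse and genes ordered by mean level. Mitotic genes spread widely within Van, with Van replicate 2 on top for most of them, while most replication and G1 genes keep their 6 points close together.

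Few members differed between the groups. In Van compared to Con, 24 members had a positive and 22 a negative log2 fold change, with a median of 0.03 against -0.00 over all genes tested. Ccnd1 was the 1 member of 46 called (adjusted p no higher than 0.05) by the quasi-likelihood test of edgeR, Benjamini-Hochberg adjusted over the 16138 genes tested, of which 322 (2.00%) were called. At an unadjusted p under 0.05, 4 members were higher and 5 lower in Van, where 8.37% of all genes tested were higher and 8.14% lower. The 3 Van mice did not overlap with the 3 Con mice in CPM for 10 of the 46 members (21.7%), against 22.5% of all genes tested, a share near the background. For each of these 10, an exact two-sided permutation test over the mice gave p = 0.1, the smallest p that 3 mice against 3 allow. Because these are bulk samples, fewer cells of a type and less RNA per cell cannot be told apart in any value given here.

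**Figure D3:**
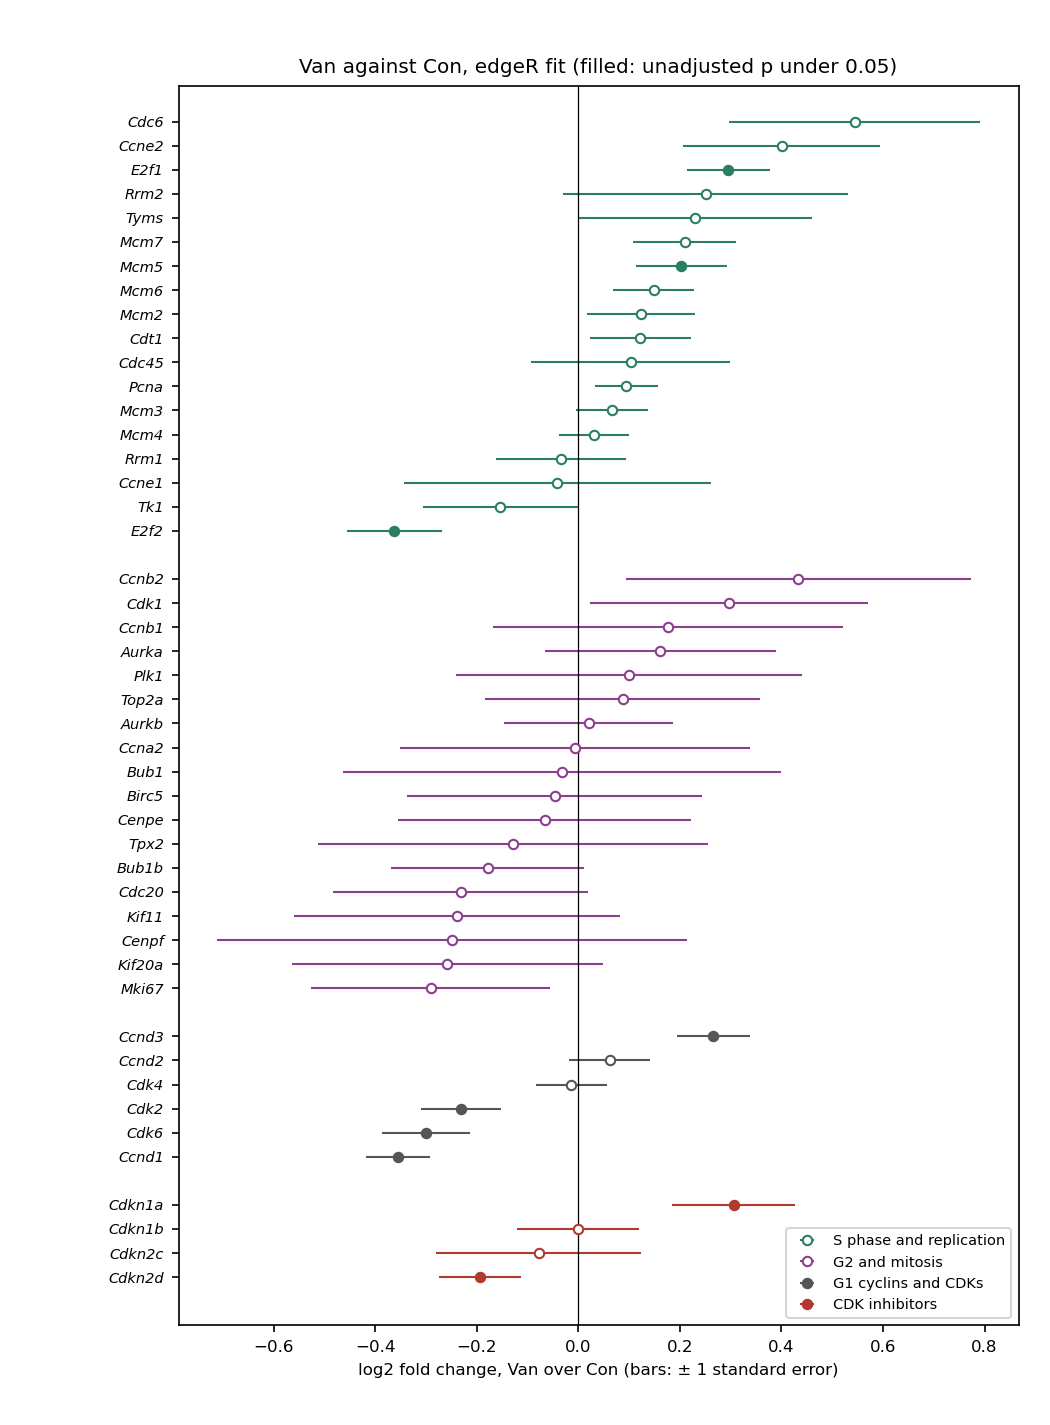
Log2 fold change of each member, Van over Con (x axis), from the edgeR fit, with bars of 1 standard error, grouped by role (colour) and filled where the unadjusted p was under 0.05. Of the 18 replication members 14 lie above 0, while the mitotic members spread around 0 with the widest bars and none is filled.

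Among the 18 S phase and replication members, 14 were higher in Van by point estimate, at a median log2 fold change of 0.12, and none was called by edgeR or limma. At an unadjusted p under 0.05, E2f1 and Mcm5 were higher and E2f2 was lower, 16.7% together against 16.5% of all genes tested. DESeq2 called E2f2, where it called 962 of 23584 genes. E2f2, an E2F factor linked to cell cycle control in blood cells, stood at 132, 152 and 130.1 CPM in Con replicates 1 to 3. In Van it stood at 94.5, 112 and 116 CPM. Every Van mouse lay below every Con mouse, a log2 fold change of -0.36 ± 0.09 (SE), with an adjusted p of 0.0956 from edgeR with Benjamini-Hochberg adjustment. In FPKM it averaged 25.0 ± 2.11 in Con and 19.8 ± 2.30 in Van (SD, n = 3 mice each).

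E2f1, an activator of the E2F family, went the other way. It stood at 14.2, 13.4 and 14.4 CPM in Con and at 18.2, 16.7 and 16.7 CPM in Van, again with no overlap. The log2 fold change was 0.29 ± 0.08 (SE), with an adjusted p of 0.114 from edgeR with Benjamini-Hochberg adjustment. In FPKM it averaged 4.26 ± 0.199 in Con and 5.26 ± 0.228 in Van (SD, n = 3), so E2f2 was the more abundant of the pair in both groups. Neither difference passed the adjustment over all genes.

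The 6 subunits of the MCM helicase, the ring that unwinds DNA at replication forks, all had positive log2 fold changes, from 0.03 for Mcm4 to 0.21 for Mcm7. Mcm5, the subunit with the smallest p, stood at 20.5, 23.1 and 24.2 CPM in Con. In Van it stood at 28.0, 25.6 and 24.5 CPM. The lowest Van mouse, replicate 3, was just above the highest Con mouse, replicate 3, and in FPKM these overlapped (5.98 against 6.03). The log2 fold change of Mcm5 was 0.20 ± 0.09 (SE), with an adjusted p of 0.302 from edgeR with Benjamini-Hochberg adjustment.

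Pcna, the sliding clamp that holds the polymerases on DNA, stood at 116, 104 and 114 CPM in Con and at 119.8, 121 and 116 CPM in Van. The groups did not overlap, although Con replicate 1 and Van replicate 3 nearly met, and in FPKM they did (68.2 and 67.3). The log2 fold change was 0.09 ± 0.06 (SE), with an adjusted p of 0.505 from edgeR with Benjamini-Hochberg adjustment, and mean FPKM was 65.4 ± 4.14 in Con and 69.9 ± 2.67 in Van (SD, n = 3). Tk1, thymidine kinase of the nucleotide salvage pathway, stood at 24.7, 16.6 and 21.5 CPM in Con and at 20.5, 19.9 and 16.1 CPM in Van. It overlapped between the groups, with the lowest Con mouse near the lowest Van mouse, at a log2 fold change of -0.15 ± 0.15 (SE) and an adjusted p of 0.694 from edgeR with Benjamini-Hochberg adjustment. Mean FPKM of Tk1 was 13.8 ± 3.41 in Con and 12.2 ± 1.89 in Van (SD, n = 3).

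The remaining replication members comprised the licensing factors Cdc6 and Cdt1, the helicase partner Cdc45, the E cyclins Ccne1 and Ccne2, and the nucleotide synthesis genes Rrm1, Rrm2 and Tyms. Their log2 fold changes ran from -0.04 for Ccne1 to 0.54 ± 0.25 (SE) for Cdc6, with no unadjusted p under 0.05. Of these 8, the groups did not overlap in CPM for Ccne2. The highest of the 6 libraries was Van replicate 2 for 11 of the 18 replication members, where it was the highest for 16.1% of all genes tested. The lowest was Con replicate 1 for 8 of them and Con replicate 2 for 6, against 17.7% and 16.3% of all genes tested. The median deviation of log2(CPM + 0.1) from the mean over the mice was -0.18, -0.10 and 0.05 in Con replicates 1 to 3. In Van it was 0.02, 0.15 and -0.005, so that Con replicate 3 lay above Van replicates 1 and 3. Summed over the 18 replication members, FPKM averaged 163 ± 8.16 in Con and 168 ± 10.0 in Van (SD, n = 3), with the groups overlapping.

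The G2 and mitosis members showed a different arrangement, with a wide spread among the Van mice and no difference between the groups beyond it. Of these 18 members, 7 had a positive and 11 a negative log2 fold change, with a median of -0.04. None was called by edgeR, DESeq2 or limma, none had an unadjusted p under 0.05 with any of these, and none was without overlap. The smallest adjusted p was 0.598 from edgeR with Benjamini-Hochberg adjustment. Standard errors of their log2 fold changes ran from 0.17 to 0.46, with a median of 0.30 against 0.10 for the replication members, so that changes of the size seen for E2f2 were not detectable for most of them.

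Top2a, the topoisomerase that untangles sister chromatids, stood at 23.3, 24.6 and 27.4 CPM in Con and at 25.1, 39.3 and 15.6 CPM in Van. The 3 Con mice lay together, while Van replicate 2 was above and Van replicate 3 below all of them. The log2 fold change was 0.09 ± 0.27 (SE), with an adjusted p of 0.919 from edgeR with Benjamini-Hochberg adjustment, and mean FPKM was 4.70 ± 0.714 in Con and 5.07 ± 2.12 in Van (SD, n = 3). Mki67, whose protein Ki-67 coats mitotic chromosomes and marks cycling cells, stood at 43.1, 46.3 and 59.2 CPM in Con and at 36.7, 57.0 and 27.8 CPM in Van. Its highest mouse was Con replicate 3 and its lowest Van replicate 3, at a log2 fold change of -0.29 ± 0.24 (SE) and an adjusted p of 0.613 from edgeR with Benjamini-Hochberg adjustment. Mean FPKM of Mki67 was 4.12 ± 0.774 in Con and 3.40 ± 1.31 in Van (SD, n = 3).

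Aurkb, the Aurora kinase that corrects faulty attachments of chromosomes to the spindle, stood at 7.62, 9.91 and 7.98 CPM in Con and at 7.47, 10.6 and 7.86 CPM in Van. The groups overlapped almost fully, with a log2 fold change of 0.02 ± 0.17 (SE) and an adjusted p of 0.969 from edgeR with Benjamini-Hochberg adjustment. Mean FPKM of Aurkb was 4.10 ± 0.464 in Con and 4.25 ± 0.759 in Van (SD, n = 3). The remaining 15 mitotic members comprised cyclins A2, B1 and B2 with Cdk1, the mitotic kinases Aurka, Plk1, Bub1 and Bub1b, Cdc20 of the anaphase-promoting complex, and the spindle, kinetochore and midzone genes Birc5, Kif11, Kif20a, Cenpe, Cenpf and Tpx2. Their log2 fold changes ran from -0.26 for Kif20a to 0.43 ± 0.34 (SE) for Ccnb2.

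Van replicate 2 held the highest value of the 6 libraries for 16 of the 18 mitotic members, where it did so for 16.1% of all genes tested. Con replicate 3 was the highest for the other 2, Mki67 and Cdc20. Van replicate 3 held the lowest value for 13 of the 18, where it did so for 16.8% of all genes tested. In FPKM, Van replicate 2 exceeded Van replicate 3 for each of the 18, by a ratio from 1.41 for Aurkb to 4.62 for Cenpf, with a median of 2.41. Among the replication members the median of this ratio was 1.11, and it was largest for Rrm2, at 2.29. The median over mitotic members of the SD of log2(CPM + 0.1) was 0.217 in Con and 0.646 in Van, against 0.137 and 0.145 for replication members.

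**Figure D4:**
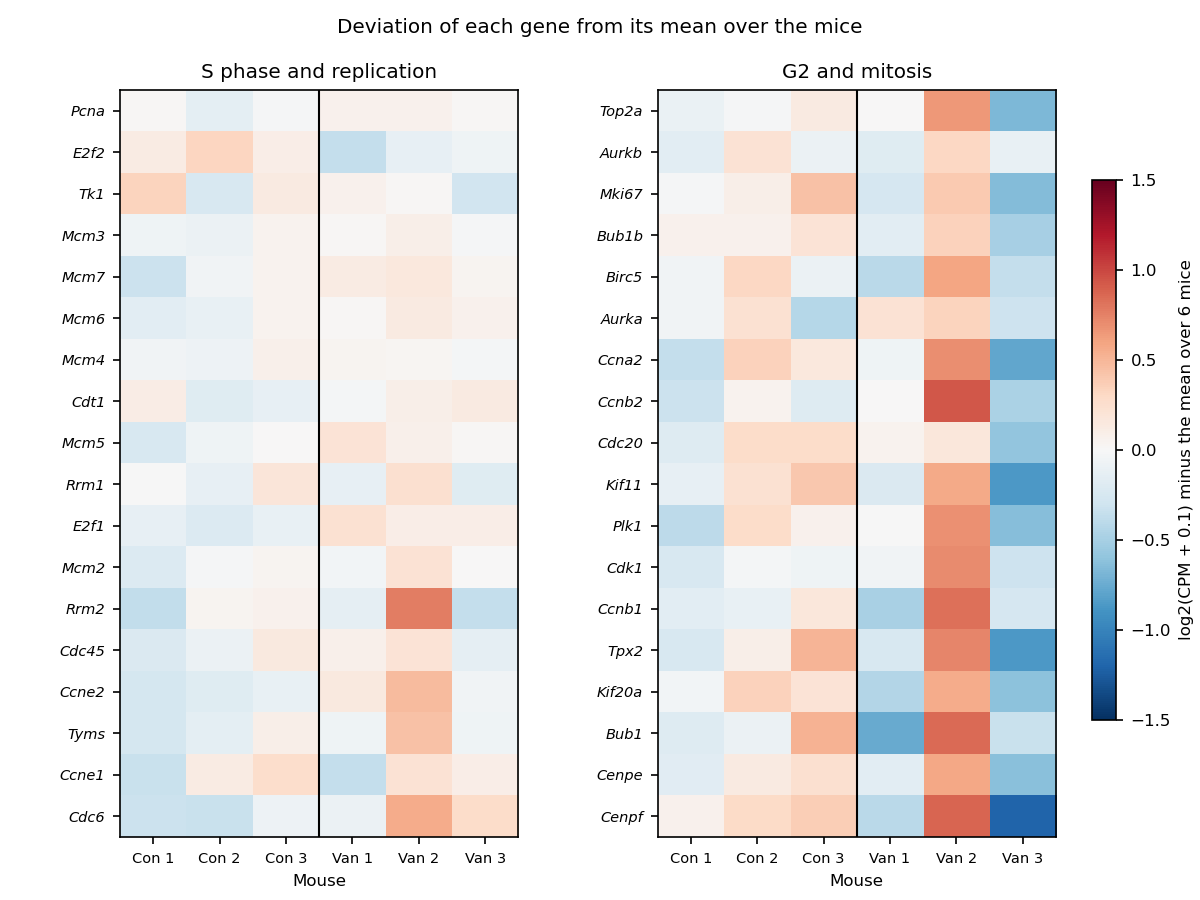
Deviation of log2(CPM + 0.1) from the mean over the 6 mice (colour, red above and blue below) for each replication member (left) and each mitotic member (right), with mice as columns. Van replicate 2 is red and Van replicate 3 blue for nearly all mitotic genes, whose median deviation was 0.62 in the former and -0.61 in the latter, while most replication genes are pale.

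The median of the mitotic members was near 0 and its sign changed with the mice included. Without Van replicate 2, 17 of the 18 were lower in Van, at a median log2 fold change of -0.44, and 6 were lower at an unadjusted p under 0.05 (against 6.13% of the 16758 genes tested in that fit), and the smallest adjusted p was 0.196 from edgeR with Benjamini-Hochberg adjustment. Without Van replicate 3, 14 of the 18 were higher, with a median of 0.16. The median was also positive without Van replicate 1 (0.08), Con replicate 2 (0.018) or Con replicate 3 (0.017), and negative without Con replicate 1 (-0.18). The replication members kept a positive median with any 1 mouse left out, from 0.04 to 0.19. Summed FPKM of the 18 mitotic members was 28.4, 34.4 and 35.7 in Con replicates 1 to 3. In Van it was 30.0, 47.6 and 22.4, so that the highest and the lowest of the 6 sums both belonged to Van.

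Markers of erythroid cells, of any stage, moved between the mice as well, and the part of these cells in the mitotic values was not tested. The surface profile given for the isolated cells asks for CD11b, a myeloid marker, and for absence of CD117, the receptor KIT, which early red-cell precursors carry, and names no marker of later ones. Of 24 erythroid markers 22 were in the tables and 18 were tested, of which 17 were higher in Van, at a median log2 fold change of 1.49, and 5 were called. These were Alas2, the first enzyme of heme synthesis in red cells (log2 fold change 2.08 ± 0.29 SE), and the globin genes Hbb-bt, Hbb-bs, Hba-a2 and Hba-a1 (1.95, 1.87, 1.81 and 1.76). Pairs of globin genes are near-identical, so reads may have been shared within each pair. Summed FPKM of the erythroid markers was 143, 210.5 and 105 in Con and 488, 784 and 350.2 in Van. Within Van, the order of the mice was the same as for the summed mitotic members, with replicate 2 first and replicate 3 last, and within Con it was not. No erythroid marker was at 0 in every library, and Klf1, a defining factor of the lineage, stood between 0.00 and 0.400 CPM in Con and between 0.196 and 1.06 CPM in Van. Without Van replicate 2, the median of the erythroid markers was 0.76 and none was called. In that fit 6 of the 20 tested had an unadjusted p under 0.05, against 11.9% of all genes tested in it. With any 1 Con mouse left out, or with either limma fit, none was called either, and without Van replicate 1 only Alas2 was.

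Splenic macrophage markers were also highest in Van replicate 2, for 12 of 13 genes. Their summed FPKM lay between 1620.4 and 1990.5 in Con and between 1902 and 2558 in Van, with 11 of 13 higher in Van. None was called by edgeR in its main fit or by limma. With edgeR 6 had an unadjusted p under 0.05 (46.2%, against 16.5% of all genes tested). edgeR did call Vcam1, as higher, with no filter on low counts (adjusted p 0.0372) and with the replicate block (adjusted p 0.0383). DESeq2 called 3 of them, C1qb and Vcam1 as higher and Siglec1 as lower, named after their values were seen. Their part in the mitotic values was not tested either. Monocyte markers were all present, with a summed FPKM between 11304 and 12787 in the 6 libraries, so the labelled cell type carried its defining markers. Of the 18 monocyte markers 2 were called, both lower in Van, Ccr2, the chemokine receptor of classical monocytes (-0.83 ± 0.14 SE), and the Fc receptor gene Fcgr1 (-0.32 ± 0.06 SE). The call of Fcgr1 was lost with any 1 mouse left out (adjusted p from edgeR 0.0679 to 0.127), and that of Ccr2 without any 1 Con mouse or without Van replicate 2 (0.0722 to 0.0991). Both were also lost with the replicate block (0.0549 for Ccr2 and 0.0895 for Fcgr1) and with both limma fits.

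**Figure D5:**
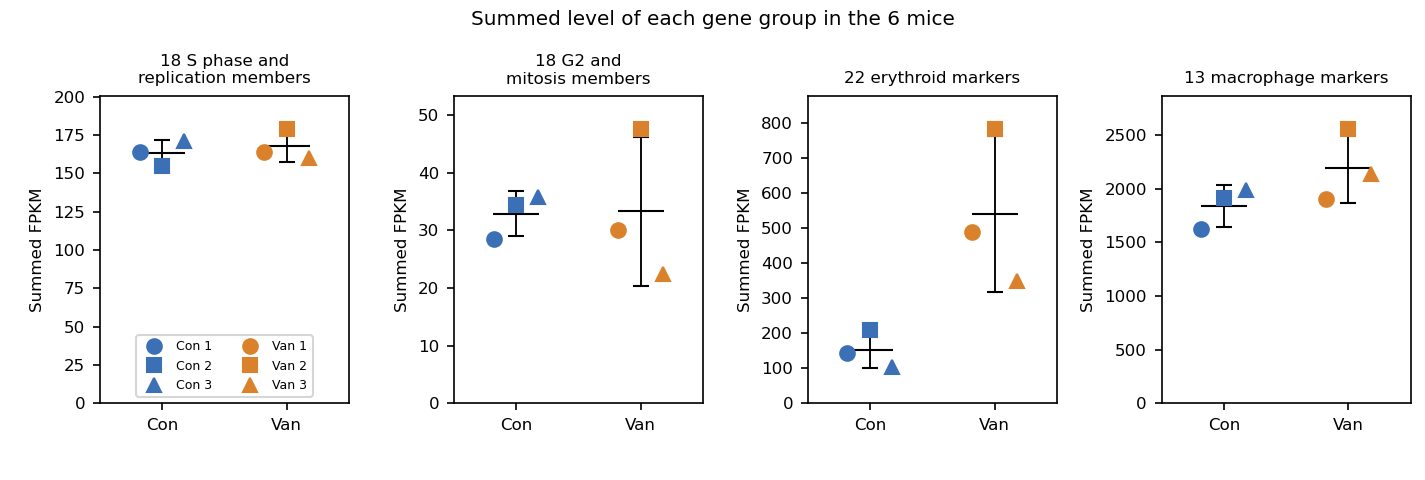
FPKM summed over the 18 replication members, the 18 mitotic members, 22 erythroid markers and 13 macrophage markers (y axes from 0) in each Con and Van mouse, with lines for the mean and bars of 1 SD. The replication sums stay between 155 and 179, the mitotic sums run from 22.4 to 47.6, and the erythroid sums are at least 350.2 in Van and at most 210.5 in Con.

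The other marker lists did not have Van replicate 2 on top, which was the highest library for at most 1 gene of each. Van replicate 3, the lowest for most mitotic members, was also the lowest for 7 of 13 T cell, 4 of 6 NK cell, 7 of 10 megakaryocyte and platelet, 6 of 12 B cell, 5 of 12 dendritic cell, 5 of 12 progenitor and 3 of 7 plasma cell markers, where it was the lowest for 16.8% of all genes tested. For T cell markers the median ratio of CPM in Van replicate 2 to that in Van replicate 3 was 1.86, against 2.32 for the mitotic members. The part of these cells in the mitotic values was not tested. The surface profile given for the isolated cells asks for absence of markers of T, B and NK cells. B cell markers were lower in Van for 12 of 12 tested genes (median -0.52), with Ighm called (-0.52 ± 0.07 SE), and dendritic cell markers for 11 of 12 (median -0.19), with Clec9a called (-1.12 ± 0.14 SE). The call of Ighm was lost without Con replicate 2 or 3 or Van replicate 2 or 3 (adjusted p from edgeR 0.0607 to 0.0890) and with the replicate block (0.0548), and that of Clec9a without Con replicate 3 (0.0721) or Van replicate 2 (0.0758). Both were also lost with both limma fits. edgeR also called Ighd with at least 10 counts in every library, on the fragment scale and without Van replicate 1. DESeq2 called Blk, Ighd and Ighm among the B cell markers. Among the dendritic cell markers it called Batf3, Clec9a, Siglech and Xcr1. Those beyond Ighm and Clec9a were named after their values were seen. Median log2 fold changes were -0.21 for 12 hematopoietic progenitor markers, -0.16 for 10 of neutrophil precursors, -0.12 for 8 of mature neutrophils, 0.01 for 7 of germinal center B cells and -0.04 for 7 of plasma cells. They were -0.48 for 13 T cell markers, -0.32 for 6 of NK cells, -0.57 for 10 of megakaryocytes and platelets, and -0.46 for 4 of basophils, mast cells and eosinophils. With 1 mouse left out, the neutrophil precursor median ran from -0.45 (Van replicate 2) to 0.34 (Van replicate 1). For basophils, mast cells and eosinophils it ran from -3.19 (Van replicate 1) to -0.07 (Con replicate 2). For mature neutrophils it reached -0.61 (Van replicate 2). Medians of germinal center B, plasma and NK cells also turned sign in some of these fits.

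The G1 cyclins and kinases held the 1 called member. Ccnd1, the gene of cyclin D1 (chr7:144929931-144939925, GRCm38), stood at 43.0, 40.5 and 43.0 CPM in Con and at 33.2, 33.7 and 31.8 CPM in Van. The mice within each group lay close together and the groups did not overlap. The log2 fold change was -0.36 ± 0.06 (SE), with an adjusted p of 0.0323 from edgeR with Benjamini-Hochberg adjustment. With any 1 of the 6 mice left out, its adjusted p from edgeR rose to between 0.0759 and 0.136, while the log2 fold change stayed between -0.38 and -0.33. The call was also lost with the replicate block (adjusted p 0.0987) and with limma on log2(FPKM + 1) (0.0570) or log2(FPKM + 0.1) (0.223). Mean FPKM of Ccnd1 was 9.59 ± 0.214 in Con and 7.44 ± 0.299 in Van (SD, n = 3).

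Ccnd3, the most abundant D cyclin here, had the opposite sign. It stood at 271, 239 and 243 CPM in Con and at 295, 285 and 324 CPM in Van, without overlap. The log2 fold change was 0.27 ± 0.07 (SE), with an adjusted p of 0.109 from edgeR with Benjamini-Hochberg adjustment, and mean FPKM was 114 ± 4.44 in Con and 136 ± 10.4 in Van (SD, n = 3). Ccnd2, the other D cyclin, had a log2 fold change of 0.06 ± 0.08 (SE).

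Cdk6, which partners the D cyclins and is also on the list of progenitor markers, stood at 46.2, 43.2 and 50.3 CPM in Con and at 40.6, 34.0 and 38.8 CPM in Van. All Van mice lay below all Con mice, at a log2 fold change of -0.30 ± 0.09 (SE) and an adjusted p of 0.132 from edgeR with Benjamini-Hochberg adjustment. Cdk2, the partner of cyclins E and A, stood at 28.1, 28.9 and 32.8 CPM in Con and at 25.9, 24.5 and 26.1 CPM in Van. It did not overlap either, at a log2 fold change of -0.23 ± 0.08 (SE) and an adjusted p of 0.197 from edgeR with Benjamini-Hochberg adjustment. Mean FPKM was 3.65 ± 0.355 and 3.07 ± 0.249 for Cdk6 and 10.6 ± 1.11 and 9.13 ± 0.150 for Cdk2, in Con and Van (SD, n = 3).

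Cdk4, the other partner of the D cyclins, stood at 52.2, 56.0 and 53.7 CPM in Con and at 50.1, 57.4 and 52.98 CPM in Van. Its groups overlapped, with a log2 fold change of -0.01 ± 0.07 (SE), an adjusted p of 0.953 from edgeR with Benjamini-Hochberg adjustment and a mean FPKM of 22.7 ± 0.868 in Con and 22.6 ± 2.00 in Van (SD, n = 3). The groups thus did not overlap for 4 of these 6 genes (66.7%, against 22.5% of all genes tested), of which Ccnd1, Cdk6 and Cdk2 were lower and Ccnd3 higher in Van. DESeq2 called Ccnd1, Ccnd3 and Cdk6 among them, where it called 962 of the 23584 genes it tested.

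None of the 4 CDK inhibitors was called by edgeR, DESeq2 or limma, and 2 had an unadjusted p under 0.05 with edgeR. Cdkn1a, which encodes the p53 target p21, stood at 242, 182 and 181 CPM in Con and at 277, 244 and 228 CPM in Van. Con replicate 1 lay among the Van mice, at a log2 fold change of 0.31 ± 0.12 (SE) and an adjusted p of 0.256 from edgeR with Benjamini-Hochberg adjustment. Mean FPKM of Cdkn1a was 89.4 ± 14.7 in Con and 112 ± 10.8 in Van (SD, n = 3).

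Cdkn2d, an INK4 inhibitor of CDK4 and CDK6, stood at 31.1, 32.8 and 31.2 CPM in Con and at 29.3, 29.0 and 24.9 CPM in Van. The groups did not overlap, with Van replicate 3 the lowest, at a log2 fold change of -0.19 ± 0.08 (SE) and an adjusted p of 0.282 from edgeR with Benjamini-Hochberg adjustment. Cdkn1b, which encodes p27, an inhibitor typical of resting cells, stood at 309, 219.6 and 260.1 CPM in Con and at 283, 268 and 237 CPM in Van. Its groups overlapped fully, at a log2 fold change of -0.00 ± 0.12 (SE) and an adjusted p of 0.998 from edgeR with Benjamini-Hochberg adjustment. Mean FPKM was 20.9 ± 0.583 and 18.4 ± 1.76 for Cdkn2d and 63.2 ± 8.94 and 64.5 ± 6.24 for Cdkn1b, in Con and Van (SD, n = 3). Cdkn2c, the other INK4 gene, had a log2 fold change of -0.08 ± 0.20 (SE).

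Further genes of the pathway were counted from lists that leave out the members. Of 58 further S phase and replication genes, 30 were higher in Van, with a median log2 fold change of 0.01. At an unadjusted p under 0.05, 2 were higher (Pold1 and Pole3) and 6 lower, 13.8% together against 16.5% of all genes tested. edgeR called 2 of the 58, both lower, where 2.00% of all genes tested were called. Genes named in this and the next paragraphs by an unadjusted p or by DESeq2 alone were chosen after their values were seen. Rfc1, the large subunit of the clamp loader that places PCNA on DNA, stood at 55.6, 55.8 and 59.9 CPM in Con and at 44.8, 45.0 and 44.6 CPM in Van. It did not overlap, at a log2 fold change of -0.35 ± 0.06 (SE) and an adjusted p of 0.0308 from edgeR with Benjamini-Hochberg adjustment. Blm, a helicase that resolves recombination at damaged forks, stood at 6.94, 6.60 and 8.76 CPM in Con and at 4.00, 4.35 and 3.69 CPM in Van. It did not overlap either, at a log2 fold change of -0.89 ± 0.15 (SE) and an adjusted p of 0.0317 from edgeR with Benjamini-Hochberg adjustment.

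Of 70 further G2 and mitosis genes, 38 were higher in Van, at a median log2 fold change of 0.02. Without Van replicate 2, 22 were higher, at a median of -0.19, and without Van replicate 3, 56 were, at a median of 0.16. The median was also negative without Con replicate 1 (-0.04). With all mice, 3 were higher (Kif23, Cdca8 and Ndc80) and 4 lower (Cenpa, Cdc25c, Aspm and Lmnb1) at an unadjusted p under 0.05, 10.0% together against 16.5% of all genes tested. None was called by edgeR with the filter used here or by limma. Kif23, a kinesin of the spindle midzone, was called by DESeq2, and by edgeR with at least 10 counts in every library (adjusted p 0.0458) and on the fragment scale (adjusted p 0.0498). The groups did not overlap for 4 of the 70 (5.71%), against 22.5% of all genes tested. Van replicate 2 was the highest for 44 of the 70 (62.9%) and Van replicate 3 the lowest for 30 (42.9%), so that the arrangement of the mice seen in the mitotic members was also seen in genes outside them. In the 58 further replication genes, Van replicate 2 was the highest for 18 (31.0%).

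Of 34 transcriptional and checkpoint regulators of the cycle, 18 were higher in Van, at a median log2 fold change of 0.01. At an unadjusted p under 0.05, 5 were higher and 1 lower, 17.6% together against 16.5% of all genes tested. edgeR called 2 of the 34, where 2.00% of all genes tested were called. Chek2, a checkpoint kinase that acts after DNA breaks, stood at 6.60, 7.62 and 7.51 CPM in Con and at 10.8, 12.0 and 11.3 CPM in Van. All Van mice lay above all Con mice, at a log2 fold change of 0.65 ± 0.11 (SE) and an adjusted p of 0.0283 from edgeR with Benjamini-Hochberg adjustment. Atr, the kinase that senses stalled forks, stood at 30.1, 32.4 and 32.9 CPM in Con and at 26.1, 24.3 and 23.2 CPM in Van. All Van mice lay below all Con mice, at a log2 fold change of -0.37 ± 0.07 (SE) and an adjusted p of 0.0448 from edgeR with Benjamini-Hochberg adjustment. With any 1 mouse left out, the adjusted p from edgeR rose above the threshold for each of these 4 genes (Rfc1, Blm, Chek2 and Atr), to between 0.0593 and 0.172, and their calls were also lost with the replicate block and both limma fits. Of 21 tested p53 target genes other than Cdkn1a, 14 were higher in Van, with a median of 0.04. None was called by edgeR or limma, and DESeq2 called Pmaip1. With edgeR 3 had an unadjusted p under 0.05 (Pmaip1 and Fas higher, Sesn1 lower), 14.3% against 16.5% of all genes tested.

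Exons of 15 members overlap those of a gene on the opposite strand, among them Ccnd1 with LTO1, Ccnd3 with Bysl, Cdk2 with Pmel, Cdk4 with Tspan31, Cdk6 with Gm17590, Tk1 with Afmid and Cdkn1a with AC167363.2. For 10 members there is a near-identical copy elsewhere in the transcripts, such as Pcna with Pcna-ps2, Ccnd3 with Ccnd3-ps and Mki67 with Gm44521. The libraries were made with a stranded kit. Whether strand was used in counting and how reads with several positions were handled are not given in the sources used here, so that the levels of these genes may include reads of their partners.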

How the data were processed

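Polyadenylated RNA of splenic monocytes was measured in 6 libraries, 3 from Con and 3 from Van mice. Because another deposit is named in the paper's data statement, libraries were matched to groups by treatment, and the VanLip group was not analysed here. Per the submitters' processing notes, the authors aligned reads to GRCm38 with HISAT2 2.2.1, sorted them with SAMtools 1.9 and assembled them with StringTie 2.1.3. Gene-level estimated counts were then imported by the authors with tximport and deposited unscaled. The deposited FPKM values, from StringTie and Ballgown, are relative to library size and transcript length. The deposited counts look like bases divided by 75 although reads of 100 bases are stated, so the smallest library held an estimated 16.3M and the largest 23.2M fragments, and an alternative used that scale.

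The expected counts, rounded to whole numbers, were tested in R 4.3.3 by the quasi-likelihood method of edgeR 4.0.16, using TMM normalization, its expression filter (minimum count 10) and a model of group alone. Adjustment was by Benjamini-Hochberg over every gene tested, with calls made up to an adjusted p of 0.05. CPM values use TMM library sizes, and CPM of single genes was also compared by exact permutation of the mice, two-sided. The tests were checked on simulated data with 200 changed genes, of which edgeR recovered 100 with 7 false calls, DESeq2 123 with 51 and limma 70 with 2.

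The members and lists were chosen with earlier results of these data known. Described gene by gene were members with an unadjusted p under 0.05, the 3 with the highest mean FPKM in each role, Mki67, Top2a, Pcna and Cdkn1a, and called genes of the lists. The lists of further pathway genes and of markers (monocytes, erythroid cells, hematopoietic progenitors, neutrophil precursors, mature neutrophils, B cells, germinal center B cells, plasma cells, T cells, NK cells, dendritic cells, splenic macrophages, megakaryocytes and platelets, and basophils, mast cells and eosinophils) were written from general knowledge.

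Alternatives were DESeq2 1.42.0 (the study's test), size factors by RLE, unscaled library sizes, omission of the count filter, a stricter one (10 counts in each library), a replicate block, limma 3.58.1 on log2(FPKM + 1) or log2(FPKM + 0.1), the fragment scale, 1 identifier per symbol, and leaving out each library in turn. Positions and exon overlaps came from GENCODE M21, and near-identical copies from BLAST 2.17.0 matches of at least 200 bases at 95% identity.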

Additional observations from a re-analysis of the deposited data

How the results depend on the processing

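edgeR called 322 genes, against 962 with DESeq2, 110 with the replicate block, 24 with limma on log2(FPKM + 1) and 0 with limma on log2(FPKM + 0.1), where 2388 genes had an unadjusted p under 0.05. With 1 mouse left out it called between 21 (without Van replicate 2) and 136 (without Con replicate 1). The 1 member called became 4 with DESeq2 (Ccnd1, E2f2, Ccnd3 and Cdk6). It became 0 with the block, with both limma fits and with any 1 mouse left out (0 to 0), where between 7 and 12 members had an unadjusted p under 0.05, against 9 with all mice and 4 with limma on log2(FPKM + 0.1). Ccnd1 kept its direction, at -0.36 with the block (adjusted p 0.0987), -0.35 with limma on log2(FPKM + 1) (adjusted p 0.0570), -0.38 on log2(FPKM + 0.1) (adjusted p 0.223) and -0.38 to -0.33 with 1 mouse left out. Fewer samples enter these last fits, and for the other alternatives the cause was not tested.

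The median log2 fold change stayed between 0.04 and 0.19 for the replication members with 1 mouse left out and ran from -0.44 to 0.16 for the mitotic members, for which it was 0.0058 with limma on log2(FPKM + 1). Every alternative moved the median by less than the spread between replicates, which was 0.10 for the replication and 0.46 for the mitotic members. That spread includes the mice left out, so it cannot show that the median was stable. The sign of the mitotic median did turn. Of the 24 members given with a log2 fold change, signs turned for 8. With 1 mouse left out, Cdk4 ran from -0.067 to 0.032, Top2a from -0.30 to 0.36, Aurkb from -0.15 to 0.15, Cdkn1b from -0.12 to 0.13, Ccnd2 from -0.0060 to 0.12, Cdkn2c from -0.30 to 0.024, Ccne1 from -0.21 to 0.13 and Ccnb2 from -0.069 to 0.71, where the negative end of Top2a, Aurkb and Ccnb2 came from leaving out Van replicate 2. Cdkn1b was also 0.0033 on unscaled library sizes, 0.0028 with no filter, 0.0087 with the block, and 0.011 with each limma fit. Ccnd1 and the remaining 15 kept their sign in all 16 alternatives, but the size of some changed. With 1 mouse left out, Mki67 ran from -0.62 to -0.080, Kif20a from -0.72 to -0.042, Tk1 from -0.30 to -0.018 and Pcna from 0.046 to 0.12.

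Con and Van replicates share numbers only. Deviations of same-numbered mice correlated at 0.08, -0.04 and -0.18, so that the pairing was not used in the main fit. The replicate block, run as an alternative, grouped mice by these numbers alone. Calls lost or gained with it therefore do not rest on true pairs of mice and do not measure how stable a gene was. With 3 mice a group and members as low as 44.9 counts in a library, small differences in the lowest genes were not detectable.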
